A study of Mus musculus with 9 samples.

Results

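The genes Bex1, Bex2, Bex3, Bex4 and Zcchc18 were followed across KSL cells of 3 kinds of mice. All 5 genes lie on the X chromosome, and each was read by 1 probe set carrying its symbol alone, so that 5 of the 12393 measured genes are described. They were chosen by measured values: Bex1, Bex4 and Zcchc18 were among the genes with the largest falls in an earlier comparison of RUNX1(41-214) with control arrays of these data (ranks 4, 9 and 13 from the lowest here), and Bex2 and Bex3 were added as family members. Differences of the RUNX1(41-214) arrays from the others are therefore given as a description, with no test.

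BEX (brain expressed X-linked) genes encode small, highly charged proteins that lack an enzyme domain and act as adaptors in signalling and transcription complexes. They sit in a mammalian gene cluster on the X chromosome together with the related TCEAL genes, and are best known from neurons, where Bex1 and Bex3 bind the intracellular part of the neurotrophin receptor Ngfr. Bex2 has been reported in a complex with Lmo2, a transcription factor adaptor of blood stem cells, and BEX genes are often silenced or lowered in tumours and some leukaemias. Zcchc18, also called Sizn2, is a zinc finger protein described as a coactivator of BMP and Smad signalling.

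KSL cells are the c-Kit+/Sca-1+/Lin-/IL7Ra- fraction of bone marrow, which holds the blood stem cells and early progenitors, and were sorted from mice of the C57BL/6 background. Control mice were Runx1floxed/floxed MxCre-/- and Runx1KO mice were Runx1floxed/floxed MxCre+/-, so that both carried floxed Runx1 alleles, and both were sampled 3 months after poly IC. Mx-Cre is driven by an interferon-responsive promoter and is not restricted to blood cells. RUNX1(41-214) mice were sampled 4 months after transplantation of cells transduced with a retroviral vector for this part of RUNX1, which contains the DNA-binding Runt domain. Their labels name neither floxed alleles nor poly IC, and no transplanted group with an empty vector was analysed here. Differences of this group thus cannot be told apart from those of transplantation, transduction and poly IC. Each group had 3 arrays of separate biological replicates. Whether mice were pooled, and their age, is not given in the sources used here.

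Median signals of the arrays ran from 124.9 to 147.1, and correlations between arrays over all genes were 0.976 to 0.992 within and 0.968 to 0.986 between groups. The log2 ratio of 3′ to 5′ Gapdh control signals, a sign of RNA integrity, was 1.85 on control replicate 2 and 2.13 on Runx1KO replicate 3, against 0.98 to 1.29 on the other 7 arrays. Runx1 itself, by the brightest of its 5 probe sets, had signals of 931 to 1701 in control, 2417 to 3476 in Runx1KO and 1815 to 2093 in RUNX1(41-214) cells. Where its probes lie relative to the deleted part is not known here, so this signal does not check the deletion. Among the markers of the sort, Kit was at 1981 to 3783 over the 9 arrays, while the 6 measured lineage markers summed to between 93.0 and 149.5 per array. Il7r, the gene of IL7Ra, was not low in every group although the gate is IL7Ra-. It was at 279.5 to 1400 in control, 379.6 to 1179 in Runx1KO and 24.6 to 43.8 in RUNX1(41-214) cells. Ly6a, which encodes Sca-1, was not analysed here.

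The promoter windows of the 5 genes are shown because those of the 4 BEX genes fall into 2 pairs of closely alike sequence, Bex1 with Bex4 and Bex2 with Bex3. Each window runs from 250 bases before to 50 bases after the start of the gene and is given on its own strand, from RefSeq (GRCm38.p6). Capitals mark 2 motifs, searched on both strands: the Runt core TGNGGT, to which RUNX1 binds, and the palindromic E-box CACGTG, which was searched after the sequences had been seen. The windows lie at chrX:136215464-136215763 (minus strand) for Bex1, chrX:136138746-136139045 (plus) for Bex4, chrX:136068187-136068486 (minus) for Bex2, chrX:136270003-136270302 (plus) for Bex3 and chrX:136992897-136993196 (plus) for Zcchc18, the first of its 2 listed windows.
Bex1: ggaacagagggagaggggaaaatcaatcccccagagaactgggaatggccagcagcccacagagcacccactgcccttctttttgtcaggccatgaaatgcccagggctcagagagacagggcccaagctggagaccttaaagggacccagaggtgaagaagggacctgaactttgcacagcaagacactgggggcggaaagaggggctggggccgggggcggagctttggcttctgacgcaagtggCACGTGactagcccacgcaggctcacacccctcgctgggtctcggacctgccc
Bex4: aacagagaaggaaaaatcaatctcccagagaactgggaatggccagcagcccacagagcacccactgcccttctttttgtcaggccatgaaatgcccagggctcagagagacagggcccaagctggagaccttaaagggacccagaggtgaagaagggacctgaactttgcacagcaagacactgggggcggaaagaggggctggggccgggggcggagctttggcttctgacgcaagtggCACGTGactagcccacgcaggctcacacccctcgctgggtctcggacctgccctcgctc
Bex2: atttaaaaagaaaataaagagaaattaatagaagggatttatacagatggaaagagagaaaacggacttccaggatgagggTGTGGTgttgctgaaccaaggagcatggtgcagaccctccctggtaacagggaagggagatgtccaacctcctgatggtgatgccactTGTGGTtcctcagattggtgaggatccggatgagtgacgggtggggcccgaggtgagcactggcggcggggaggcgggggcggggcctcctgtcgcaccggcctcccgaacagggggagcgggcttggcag
Bex3: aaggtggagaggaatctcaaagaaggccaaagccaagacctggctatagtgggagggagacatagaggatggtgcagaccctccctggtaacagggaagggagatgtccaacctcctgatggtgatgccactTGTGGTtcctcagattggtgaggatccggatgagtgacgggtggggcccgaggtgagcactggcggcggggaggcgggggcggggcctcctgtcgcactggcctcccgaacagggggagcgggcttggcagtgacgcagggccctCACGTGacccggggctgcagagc
Zcchc18: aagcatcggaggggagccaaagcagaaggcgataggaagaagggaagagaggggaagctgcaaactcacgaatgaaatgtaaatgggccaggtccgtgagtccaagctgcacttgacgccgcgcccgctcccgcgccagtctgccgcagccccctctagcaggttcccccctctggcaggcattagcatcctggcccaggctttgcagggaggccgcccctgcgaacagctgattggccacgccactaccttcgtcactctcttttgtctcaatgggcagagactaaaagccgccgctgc

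The Bex1 and Bex4 windows matched over 290 aligned bases with 287 identical (99.0%). Those of Bex2 and Bex3 matched over 199 bases with 197 identical (99.0%). Between a gene of one pair and a gene of the other, the best local match covered 31 aligned columns, 24 of them identical. The Runt core had 2 matches in the Bex2 window and 1 in the Bex3 window, and 0 in the windows of Bex1, Bex4 and Zcchc18. It was present in 45.8% of the 32851 windows in the table. CACGTG was found once each in the windows of Bex1, Bex4 and Bex3, against 7.15% of all windows. The matches of Bex1 and Bex4 lie in the sequence that their windows share. As this motif was searched after the sequences had been seen, these counts are only a description. GC content was 56.3% to 63.7% over the 5 windows. Transcripts were not compared, and whether each probe set reads its own gene alone was not tested.

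Bex1 gave signals of 2532, 2219 and 2802 in control replicates 1 to 3, of 1532, 1371 and 1840 in Runx1KO, and of 203.1, 186.4 and 66.9 in RUNX1(41-214) cells. All 3 RUNX1(41-214) arrays lay far below the other 6, and the Runx1KO arrays lay below the control arrays without overlap. The mean signal was 2517 ± 292.1 in control and 152.1 ± 74.3 in RUNX1(41-214) cells (SD, n = 3 each), a ratio of 16.5. On the scale of log2(signal + 16), on which all differences below are given, RUNX1(41-214) minus control was -3.99 ± 0.34 (SE) and RUNX1(41-214) minus Runx1KO was -3.29 ± 0.34.

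Bex4, whose promoter window matched that of Bex1, had signals of 239.5, 295.3 and 308.8 in control, 139.2, 84.2 and 206.6 in Runx1KO, and 23.2, 21.6 and 13.1 in RUNX1(41-214) cells. The order of the groups was that of Bex1, again with no overlap at either step. The mean signal in control cells was 14.6 times that in RUNX1(41-214) cells, and the log2 difference was -3.02 ± 0.29. Against Runx1KO, RUNX1(41-214) was at -2.07 ± 0.29. At signals this low the size depends on the offset: with an offset of 1 the difference from control was -3.75, and with 50 it was -2.21.

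Zcchc18, the BMP coactivator gene, was at 396.2, 432.8 and 247.3 in control, 198.6, 139.9 and 91.6 in Runx1KO, and 34.8, 24.9 and 36.0 in RUNX1(41-214) cells. It stepped down from control to Runx1KO and from Runx1KO to RUNX1(41-214), with no overlap. The mean signal in control cells was 11.3 times that in RUNX1(41-214) cells (log2 difference -2.87 ± 0.29, against -1.62 ± 0.29 for RUNX1(41-214) minus Runx1KO). With offsets of 1 and 50 the difference from control was -3.35 and -2.24.

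Bex2, the reported partner of Lmo2, was dim throughout. Its signals were 81.6, 109.4 and 64.6 in control, 47.6, 57.2 and 49.9 in Runx1KO, and 29.0, 64.4 and 26.1 in RUNX1(41-214) cells. RUNX1(41-214) replicate 2 lay above all Runx1KO arrays and level with control replicate 3, and after normalization this group overlapped both others. The Runx1KO arrays lay below control. The log2 difference of RUNX1(41-214) from control was -0.79 ± 0.27, and its difference from Runx1KO was -0.28 ± 0.27.

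Bex3, the adaptor also known as Nade that links Ngfr to cell death, kept high signals in all groups. Control replicates were at 2369, 3621 and 1470, Runx1KO replicates at 2569, 2985 and 1352, and RUNX1(41-214) replicates at 2167, 2030 and 2245. The RUNX1(41-214) arrays fell inside the range of the control arrays, and replicate 3 was the lowest in both of the other groups. RUNX1(41-214) minus control was -0.12 ± 0.29, with a 95% interval of -0.77 to 0.52, and RUNX1(41-214) minus Runx1KO was -0.02 ± 0.29 (-0.67 to 0.62). These intervals bound the differences of Bex3 that these arrays allow, and are given as a description with no test.

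**Figure D1:**
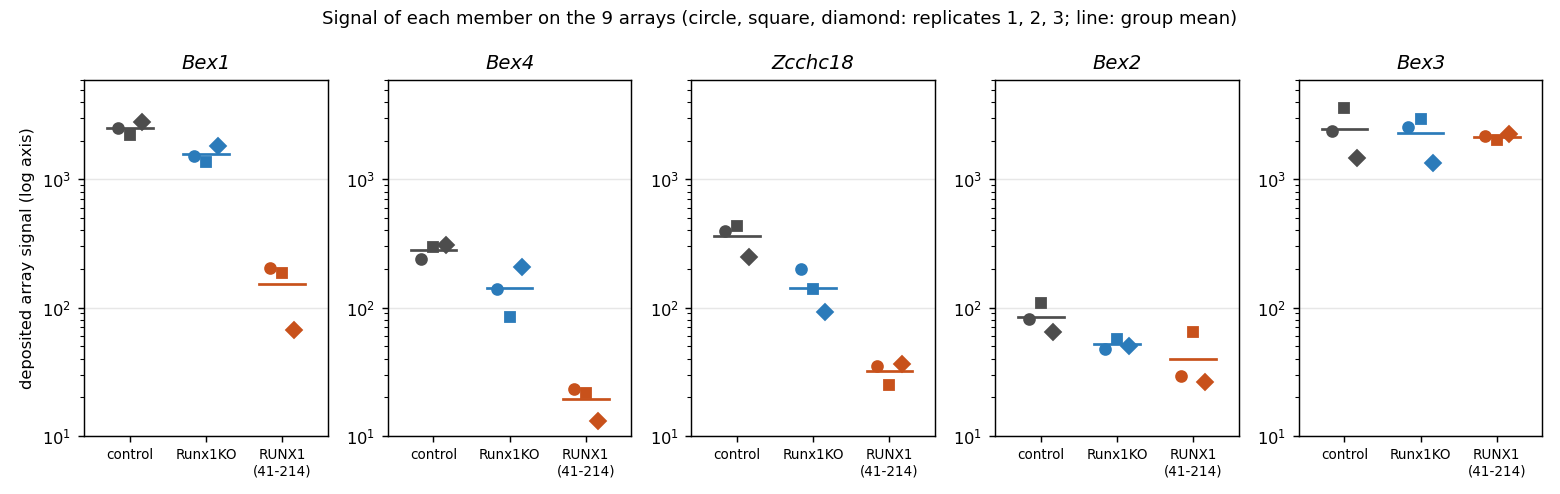
Deposited array signal of Bex1, Bex4, Zcchc18, Bex2 and Bex3 (log axis) on the 3 arrays of each group, with circle, square and diamond for replicates 1, 2 and 3 and a line at the group mean. Bex1, Bex4 and Zcchc18 step down from control to Runx1KO to RUNX1(41-214), for Bex1 from a mean of 2517 to 152.1, while Bex3 stays between 1352 and 3621.

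An order of control above Runx1KO above RUNX1(41-214), with no overlap at either step, held for 3 of the 5 genes and for 0.742% of all genes. Between RUNX1(41-214) and control, 3 of the 5 were lower without overlap, as were 10.2% of all genes. The same 3 were lower in RUNX1(41-214) than in Runx1KO without overlap, as were 9.13% of all genes. Since the 3 were picked for these falls, the counts are only a description.

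Runx1KO and control cells were compared to see whether deletion of Runx1 moves the same genes. No member passed the threshold in this comparison, whose control arrays had also entered the choice of the genes. Zcchc18 had the largest difference of the 5, -1.25 ± 0.29 (SE), with a 95% interval of -1.88 to -0.63 and an adjusted p of 0.111 by limma over all genes. Bex4 was at -0.96 ± 0.29 (adjusted p = 0.297), Bex1 at -0.70 ± 0.34 (adjusted p = 0.719), Bex2 at -0.52 ± 0.27 (adjusted p = 0.773) and Bex3 at -0.10 ± 0.29 (adjusted p = 0.986). Arrays of Runx1KO lay below those of control without overlap for 4 of the 5 genes, all but Bex3, and for 5.20% of all genes. At an unadjusted p under 0.05 were 2 of the 5 (Zcchc18 and Bex4) and 7.22% of all genes. By the adjusted p, 0.347% of all genes passed, and 0.113% did so downward.

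**Figure D2:**
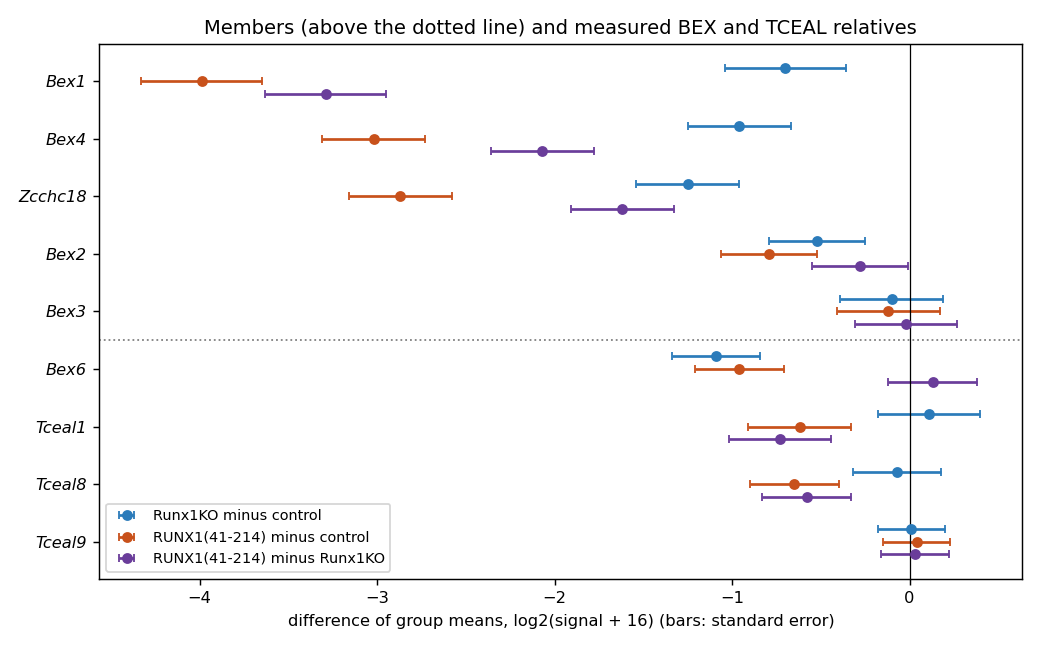
Differences between group means on the log2(signal + 16) scale with standard errors, for the 5 genes (above the dotted line) and the measured BEX and TCEAL relatives, in 3 comparisons. Bex1, Bex4 and Zcchc18 lie between -3.99 and -2.87 for RUNX1(41-214) minus control, and Bex3 and Tceal9 lie near 0 in every comparison.

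Within groups the 5 genes did not all vary together. After removal of the group means, Bex1 and Bex4 correlated at 0.63 over the 9 arrays, whereas Zcchc18 correlated at -0.40 with Bex1 and -0.47 with Bex4. Runx1KO replicate 3, the array with the highest Gapdh ratio (2.13), had the highest Bex1 and Bex4 signals of its group and the lowest Zcchc18 signal. RUNX1(41-214) replicate 3 had the lowest Bex1 and Bex4 signals of its group. Its Zcchc18 signal was the highest of the group as deposited, but lay below that of replicate 1 after normalization. Zcchc18 varied with Bex3 (0.82), which did not share its differences between groups. The arrays of a correlation share their labelling and scan, 9 values with 3 means removed are few, and no test is attached.

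The relatives of the BEX genes were next compared, from a list of 8 of which 4 were measured by a probe set of their own. None passed by limma in any of the 3 comparisons, for which 0.347%, 4.28% (RUNX1(41-214) minus control) and 1.36% (RUNX1(41-214) minus Runx1KO) of all genes were called. The medians of the 4 were -0.03, -0.63 and -0.27, against -0.00, 0.02 and 0.02 over all genes. At an unadjusted p under 0.05 were 1, 2 and 2 of the 4, and 7.22%, 15.5% and 10.6% of all genes, the shares against which the unadjusted counts of the lists below are to be read.

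Bex6, a BEX gene outside the X cluster on chromosome 16, had signals of 1672, 1373 and 2188 in control, 909.7, 615.0 and 935.5 in Runx1KO, and 942.7, 1050 and 689.3 in RUNX1(41-214) cells. Both groups lay below control without overlap, and they overlapped each other. The difference was -1.09 ± 0.25 for Runx1KO (adjusted p = 0.111) and -0.96 ± 0.25 for RUNX1(41-214) (adjusted p = 0.0541), which missed the threshold, and RUNX1(41-214) minus Runx1KO was 0.13 ± 0.25. Under other settings the adjusted p of RUNX1(41-214) minus control ran from 0.0255 to 0.199 and passed in 6 of 21.

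Tceal9, which lies beside Bex3, was at 1943 to 3170 in control, 1776 to 2713 in Runx1KO and 2215 to 2584 in RUNX1(41-214) cells, with log2 differences from control of 0.01 ± 0.19 and 0.04 ± 0.19. Tceal8, named after its values were seen, was at -0.65 ± 0.25 in RUNX1(41-214) minus control (adjusted p = 0.218) and at -0.07 ± 0.25 in Runx1KO minus control. Along the chromosome, Tceal8 was the measured gene between Bex4 and Bex1, and Tceal9 that between Bex1 and Bex3.

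Measured neighbours were taken from the 10 gene positions on each side of each of the 5 genes on the X chromosome, in the order of RefSeq (GRCm38.p6). Of 51 such genes 10 were measured. In RUNX1(41-214) minus control 2 of the 10 fell and 0 rose, with a median of -0.09 (4 at an unadjusted p under 0.05), against 2.56% of all genes called lower. In RUNX1(41-214) minus Runx1KO 1 fell, against 1.06% of all genes called lower. In Runx1KO minus control 1 fell, with a median of -0.06, against 0.113% of all genes called lower.

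Slc25a53, a mitochondrial carrier gene directly beside Zcchc18, was the first of them. Its signals were 705.7, 258.0 and 450.2 in control, 233.6, 177.2 and 137.8 in Runx1KO, and 133.5, 97.1 and 77.9 in RUNX1(41-214) cells. Both groups lay below control without overlap, and RUNX1(41-214) arrays lay below Runx1KO arrays on the deposited signals but not after normalization. RUNX1(41-214) minus control was -1.86 ± 0.35 (adjusted p = 0.00968), a call kept in all 21 other settings run (adjusted p up to 0.0435). Runx1KO minus control was -1.23 ± 0.35 (adjusted p = 0.246).

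Nrk, a kinase gene farther along, was at 127.2, 157.8 and 163.0 in control, 68.7, 44.1 and 58.4 in Runx1KO, and 12.2, 16.2 and 7.18 in RUNX1(41-214) cells. It was lower in all 3 comparisons (RUNX1(41-214) minus control -2.51 ± 0.21, adjusted p = 5.00e-05, and Runx1KO minus control -1.14 ± 0.21, adjusted p = 0.0454), and the groups did not overlap. The call for Runx1KO was kept in 4 of 20 other settings (adjusted p up to 0.198) and was lost when any single array was left out. The other 2 probe sets of Nrk, with signals of 8.43 to 37.6, were at -0.08 and -0.04 in RUNX1(41-214) minus control. With the mean of its 3 probe sets, the call against Runx1KO was lost (adjusted p = 0.00659 with the brightest and 0.259 with the mean). Between Zcchc18 and Nrk, Esx1 was at 0.21 and Il1rapl2 at -0.11 in RUNX1(41-214) minus control, and neither passed (adjusted p = 0.529 and 0.884 by limma).

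**Figure D3:**
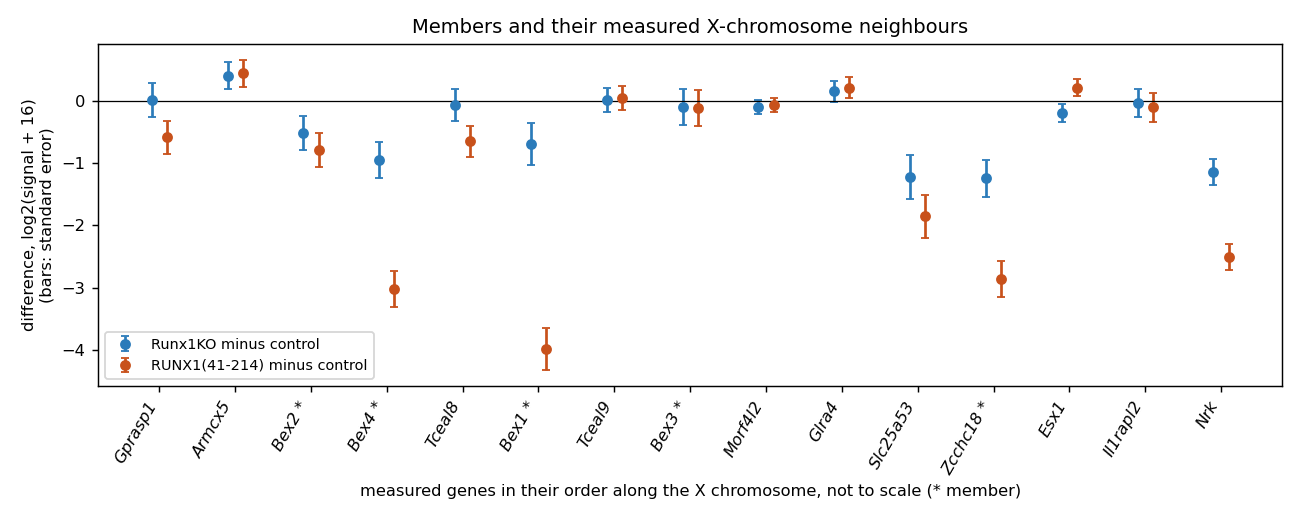
Differences from control on the log2(signal + 16) scale with standard errors for the 5 genes (asterisks) and their 10 measured neighbours, in their order along the X chromosome and not to scale. For RUNX1(41-214), Bex4, Bex1, Zcchc18 and Nrk lie at -2.51 or lower and Slc25a53, beside Zcchc18, at -1.86, while Tceal9 lies at 0.04.

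As the BEX cluster is X-linked, genes that mark the sex of the mice were also read. Whether sex bears on the signals of the cluster was not tested. Xist, which is transcribed from the inactive X chromosome of females, was at 2082 to 3717, and the Y-linked Eif2s3y at 352.8 to 1105, over the 9 arrays, so that both were present on every array. None of the 4 measured sex-linked genes passed in any comparison by limma (1, 0 and 0 at an unadjusted p under 0.05), and Xist was at 0.05 ± 0.23 in RUNX1(41-214) minus control and -0.05 ± 0.23 in Runx1KO minus control. The medians of the 4 were 0.73 in Runx1KO and 0.51 in RUNX1(41-214) minus control, with Eif2s3y lowest on control replicates 1 and 2. The part of the Y-linked differences in the results was not tested.

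The ARMCX and GPRASP genes, of an X-linked group that neighbours the BEX cluster, numbered 6 measured of 9. None passed by limma in any comparison (0, 2 and 2 at an unadjusted p under 0.05), and their medians were -0.02 and -0.25 for Runx1KO and RUNX1(41-214) against control, and -0.16 between those groups. Lists below follow this order. Armcx2 was at -0.30 ± 0.17 and Armcx3 at -0.54 ± 0.15 in RUNX1(41-214) minus control (adjusted p = 0.458 and 0.0719 by limma). In this comparison 4 of the 6 were below 0. Armcx4 and Armcx5, named after their values were seen, were above it at 0.62 ± 0.37 and 0.44 ± 0.22 (adjusted p = 0.478 and 0.39 by limma). Relatives of Zcchc18 in the PNMA family, 8 listed, were not analysed here.

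Of the reported BEX partners and genes of the Ngfr pathway 10 of 13 were measured. Only 1 of the 10 passed, in RUNX1(41-214) minus control, where 2.56% of all genes were called lower. This was the apoptosis inhibitor Bcl2, which fell (-1.46 ± 0.35, adjusted p = 0.0367 by limma). Its signals were 383.7, 255.9 and 313.7 in control, 139.0, 128.7 and 106.0 in Runx1KO, and 51.5, 78.8 and 204.6 in RUNX1(41-214) cells, where replicate 3 lay above all Runx1KO arrays. The call was kept in 13 of 21 other settings, and was lost over all probe sets, in a fit of the 2 groups alone, and without control replicate 1 or 3, Runx1KO replicate 1 or 2 or RUNX1(41-214) replicate 1 or 2 (adjusted p up to 0.157). Ngfr itself was at 1.00 to 12.9 over the 9 arrays, among the lowest signals measured here. Lmo2, the partner of Bex2, was at 3925 to 5723 and differed by -0.01 ± 0.11 between RUNX1(41-214) and control. The medians of the 10 were 0.08, 0.01 and -0.11.

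All 17 genes of the BMP and Smad list, the pathway tied to Zcchc18, were measured. None passed against control by limma (3 and 2 at an unadjusted p under 0.05), with medians of 0.10 in Runx1KO and -0.04 in RUNX1(41-214). Only 1 of the 17 passed in RUNX1(41-214) minus Runx1KO, where 1.06% of all genes were called lower. This was the ligand gene Bmp4, which was lower (-0.96 ± 0.15, adjusted p = 0.00822 by limma, and 0.0553 without RUNX1(41-214) replicate 2). Its signals were low, at 11.8 to 15.8 in RUNX1(41-214) against 40.0 to 44.3 in Runx1KO cells. Control cells lay between, at 18.9 to 24.8, with Runx1KO at 0.68 ± 0.15 and RUNX1(41-214) at -0.28 ± 0.15 from control (adjusted p = 0.100 and 0.422 by limma). In RUNX1(41-214) minus Runx1KO the 17 had a median of -0.17.

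Markers of cell types that the gate could hold were set beside these values. Of 9 measured early lymphoid markers, 5 fell in RUNX1(41-214) minus control and 0 rose, against 2.56% of all genes called lower and 1.73% called higher. The antigen receptor DNA polymerase Dntt was at -1.93 ± 0.24 (adjusted p = 7.13e-04) and the homing receptor Ccr9 at -2.18 ± 0.29 (adjusted p = 0.00132), both by limma. In Runx1KO minus control only 1 of the 9 fell, against 0.113% of all genes called lower. This was Ccr9 (-1.74 ± 0.29, adjusted p = 0.0318 by limma), and the median of the 9 was -0.20. For the lymphoid list, the summed signal was 8838 to 13784 in control, 5969 to 11535 in Runx1KO and 3208 to 4155 in RUNX1(41-214) cells. The sum was lowest in RUNX1(41-214) cells, the group whose falls chose Bex1, Bex4 and Zcchc18. In RUNX1(41-214) minus control 8 of the 9 lymphoid markers were below 0, and Igll1 was at 0.54 ± 0.29 (adjusted p = 0.426 by limma). The 7 megakaryocyte markers, of which 4 rose in RUNX1(41-214) (Treml1 by 3.38 ± 0.22, adjusted p = 8.83e-06 by limma) and 3 in Runx1KO (against 0.234% of all genes called higher), summed to 3301 to 4217, 6278 to 7601 and 11104 to 12706 in the same order. Of 10 HSC markers, 1 rose (Tek) and 2 fell (Ndn and Procr) in RUNX1(41-214) minus control, and 2 rose in Runx1KO (Tek and Mllt3). The part of these cell types in the differences of the BEX genes was not tested. In bulk samples of this kind, fewer cells of a type and less RNA per cell cannot be told apart.

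Neuronal markers, from the cells in which BEX genes are best known, gave summed signals of 84.8 to 127.9 in control, 89.4 to 97.7 in Runx1KO and 88.6 to 121.7 in RUNX1(41-214) cells, with none of 6 past the threshold by limma (1, 1 and 0 at an unadjusted p under 0.05). Uchl1, the brightest of the 6, was at 25.6 to 53.3 over the 9 arrays. The 8 stromal and endothelial markers, none of them past the threshold (1, 1 and 1 at an unadjusted p under 0.05), summed to 542.2 to 715.1, 743.6 to 823.0 and 503.2 to 704.2 in the same order. The 6 lineage markers had none past the threshold either (0, 1 and 1). Of the 4 measured gate markers, 1 fell (Il7r) and 1 rose (Kit) in RUNX1(41-214) minus control, against 2.56% of all genes called lower and 1.73% called higher. Il7r was at -3.69 ± 0.51 (adjusted p = 0.0015 by limma). Kit was at 0.57 ± 0.14 (adjusted p = 0.0415 by limma), a call kept in 11 of 21 other settings, with an adjusted p up to 0.381.

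Similar profiles were sought among genes whose highest group mean lay above the median of all genes (7.95 on the log2 scale). The X-chromosome neighbour Nrk, at 7.31 in control, was too dim to be eligible. Probe sets of several symbols were also left out. The 8 eligible genes whose levels over the 9 arrays were most like the mean profile of Bex1, Bex4 and Zcchc18 lay on other chromosomes. They were Cdcp1 (Pearson r 0.980), Rida (0.979), the imprinted growth suppressor Ndn (0.978), the lymphoid fate receptor Notch1 (0.976), Vnn1 (0.969), the cytokine receptor Il17re (0.962), Ehd3 (0.960) and Emp1 (0.956). Bex2 had 0.69 and Bex3 0.10 by the same measure, which over 3 separate groups of arrays mainly reflects the group means. Ndn was at 1284 to 1668 in control, 693.7 to 794.6 in Runx1KO and 19.5 to 30.3 in RUNX1(41-214) cells. Cdcp1 was at 307.8 to 356.3, 162.7 to 178.3 and 46.9 to 55.4 in the same order. Since they were picked by resemblance to the 3, no test of the likeness is given.

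**Figure D4:**
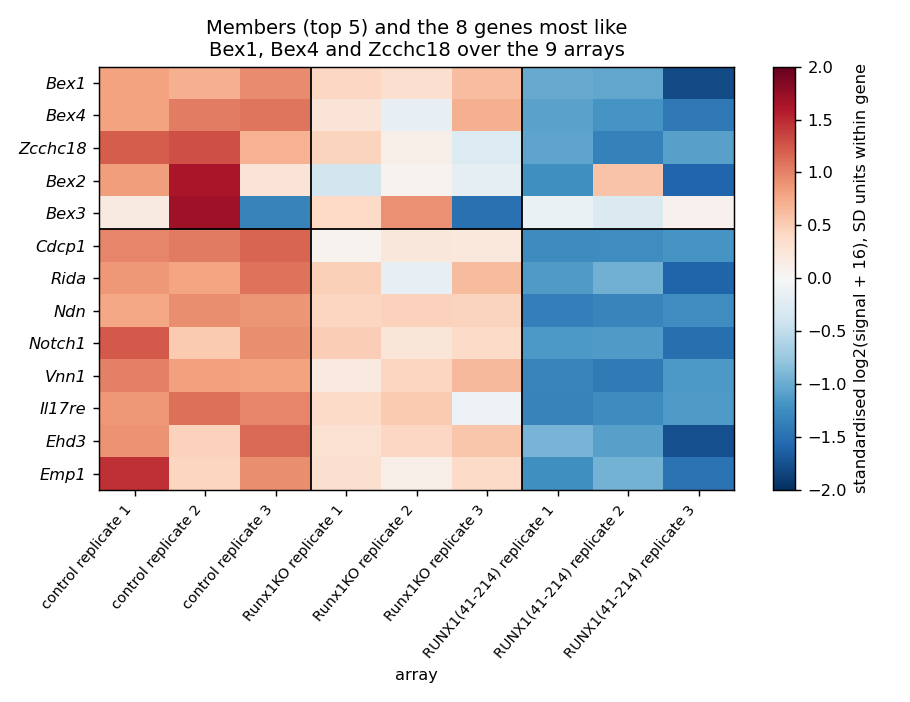
Standardised log2(signal + 16) of the 5 genes (top) and of the 8 genes most like Bex1, Bex4 and Zcchc18 (bottom) on each of the 9 arrays, in SD units within a gene, with red above and blue below the gene's mean. The 8 genes repeat the order of control, Runx1KO and RUNX1(41-214), while Bex3 (r 0.10) is highest on control replicate 2 and lowest on the third replicates of control and Runx1KO.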

How the data were processed

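Total RNA of sorted cells was labelled by the Affymetrix two-cycle procedure, per the labels' protocols, which amplifies the material before hybridisation. The authors deposited linear signal intensity values for 22690 probe sets (0.53 to 20215). No source used here gives the summarisation, scaling or detection calls, so it is not known which signals exceed background.

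After 64 control probe sets were set aside, log2(signal + 16) was quantile normalized. Of 22626 probe sets, 20380 carried 1 gene symbol, 691 several and 1555 none, and the brightest probe set stood for each of 12393 genes. Group means were estimated from the 9 arrays together in limma 3.58.1 (R 4.3.3, variance trend, two-sided, 6 residual degrees of freedom), with Benjamini-Hochberg adjustment over all genes and a threshold of 0.05. The number of arrays limits the precision (median SE 0.20). The procedure was tested on simulated data.

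The genes and lists were chosen with earlier results of these data known. Named genes are the 5, list members past the threshold (up to 4 with the lowest p, named in part) or, with none, the brightest 2, neighbours past it and the 8 most similar genes; others are said to have been named later. Alternatives were normalization, offset, dim genes, probe set handling, array weights, variance trend, samples in the fit, single arrays left out and replicate number as a block. Same-numbered arrays of control and Runx1KO deviated together with correlations of 0.03, 0.41 and 0.42. Those of RUNX1(41-214) with either group were at -0.17 to 0.20. The numbers were not taken as pairs in the main fit, and whether they are pairs was not settled.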

Additional observations from a re-analysis of the deposited data

How the results depend on the processing

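Of the 104 values of the 5 genes in each comparison over 21 alternatives, 100 kept their direction and side of the threshold (Runx1KO minus control) or moved by less than the replicate SD (both others); dim Bex2 had no value without dim genes. Bex3 in Runx1KO minus control turned to 0.10 with array weights, 0.21 without control replicate 2, 0.20 without Runx1KO replicate 3 and 0.51 without both arrays of high Gapdh ratio. With offsets of 1 and 50, Bex4 was at -3.75 and -2.21 and Zcchc18 at -3.35 and -2.24 against control, and Bex4 at -2.71 and -1.40 and Zcchc18 at -2.0 and -1.16 against Runx1KO, as an offset shrinks low signals. No alternative brought a gene of the 5 past the threshold in Runx1KO minus control (lowest adjusted p 0.0918, Zcchc18, replicate block).

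With single arrays left out, Runx1KO minus control ran from -0.86 to -0.58 for Bex1, -1.26 to -0.66 for Bex4, -1.49 to -1.01 for Zcchc18, -0.67 to -0.34 for Bex2 and -0.41 to 0.21 for Bex3. RUNX1(41-214) minus control ran from -4.25 to -3.50 for Bex1, -3.13 to -2.88 for Bex4 and -3.11 to -2.73 for Zcchc18. Genes called numbered 43 in Runx1KO minus control (14 to 51 with an array left out, 9 in a fit of these 2 groups alone), 531 in RUNX1(41-214) minus control (295 to 613) and 168 in RUNX1(41-214) minus Runx1KO (74 to 208, 371 with array weights). The replicate block gave 48, 539 and 171 and changed no call of the 5 in Runx1KO minus control, the comparison in which they were tested.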

Other observations

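A probe set annotated to 3 TCEAL genes, and so left out of the genes above, was at 85.4, 128.3 and 100.3 in control, 48.8, 60.7 and 62.9 in Runx1KO, and 15.8, 23.1 and 17.2 in RUNX1(41-214) cells. The groups did not overlap. In a fit of all 22626 probe sets by limma it was lower in RUNX1(41-214) than in control (-1.72 ± 0.20, adjusted p = 8.11e-04) and than in Runx1KO (-1.06 ± 0.20, adjusted p = 0.0318), and at -0.66 ± 0.20 in Runx1KO minus control (adjusted p = 0.387). It was noticed after its values were seen, and which of the 3 genes it reads was not tested.

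Within groups, Bex3 and Tceal9, which lie side by side, varied together across the 9 arrays (r = 0.83 after removal of group means). Tceal8 and Bex1 were at 0.58 and Tceal8 and Bex4 at 0.04. These values are descriptions with no test.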
